A study of Homo sapiens with 4 samples.

Results

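The genes described are 30 genes of cholesterol synthesis, uptake and SREBP control, in RNA sequencing of A549 cells with knockdown of NUPR1. They were chosen by name, as 20 enzymes in pathway order and 10 genes of control, uptake and storage. Of the 30 names, 29 matched a row among the 19402 rows of the deposited count table. The expression of SREBF2 is not analysed here. A549 is an established human lung adenocarcinoma line, and NUPR1 (p8 in the labels) is a small stress-induced chromatin protein. The groups were the NUPR1 knockdown cells and the control cells, both A549 with no further agent, time or allele named, and the way NUPR1 was depleted is not given in the sources used here. By the labels, each group had 2 of the 4 polyadenylated RNA libraries, 1 single-end and 1 paired-end, but the count table holds 1 column per group. No value has a replicate, so nothing was tested, and nothing says whether the libraries of a group came from separate cultures.

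Cholesterol is built from acetyl-CoA through mevalonate, the isoprenoid diphosphates, squalene and lanosterol, and isoprenoids leave the pathway midway for protein prenylation, ubiquinone and dolichol. Transcription of the enzymes is driven by SREBP transcription factors, which SCAP carries from the endoplasmic reticulum to the Golgi for cleavage when sterols are low, while INSIG proteins hold SCAP back when sterols are high. LXR receptors respond to oxysterols and drive sterol efflux. In lung epithelium the pathway also feeds the lipids of surfactant and membranes.

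Total depth was 16649863 reads with the knockdown and 20299441 without. Expression levels are stated as CPM (counts per 1000000 reads after TMM scaling) with 95% Poisson intervals, and differences as the log2 ratio of knockdown over control with 95% exact intervals. Both cover counting error only. NUPR1 itself had 71 reads with the knockdown and 197 without, a log2 ratio of -1.21 (-1.63 to -0.81), so the target was lower where the label says so. The epithelial keratins KRT8 and KRT18 were abundant in both columns (10479 and 9129 CPM with the knockdown, 8775 and 8071 CPM without), whereas EPCAM had 4.05 and 4.18 CPM. The other epithelial markers differed between the columns in opposite directions, CDH1 with 71.3 and 43.0 CPM (log2 ratio 0.73, 0.60 to 0.86) and KRT19 with 22 and 46 reads (-0.81, -1.61 to -0.04). The alveolar type 2 markers summed to 38.2 and 32.6 CPM, of which ABCA3 held 28.3 and 25.1, while SFTPC had 33 and 37 reads and SFTPB 53 and 33 (0.94, 0.29 to 1.62). The part of these markers in the results was not tested. Markers of other cells were near 0, as the 3 leukocyte markers in the table summed to 1.43 and 0.945 CPM, the 4 of fibroblasts to 2.92 and 2.39, the 3 of endothelium to 1.67 and 0.547 and the 4 of steroid-making and liver cells to 0.476 and 0.398. In bulk RNA a change in RNA per cell and a change in the make-up of the culture cannot be told apart.

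Cholesterol enzyme transcripts were higher in the knockdown column, unevenly along the pathway. The 20 enzymes together reached 2012 CPM (1990 to 2033) with the knockdown and 1336 CPM (1320 to 1352) without, a 1.51-fold higher sum. HMGCS1 made up 21.3% (Wilson 95% interval 20.9 to 21.8) of the enzyme reads in the knockdown column and 13.1% (12.7 to 13.5) of those in the control column. Without HMGCS1 the sum was 1.36-fold higher. A mean of at least 5 CPM was reached by 27 of the 29 genes, each of them with at least 5 CPM in both columns. TM7SF2 and MYLIP were below it. All 19 enzymes past that level had a ratio above 0, where 51.2% of the 10689 genes at that level did, and 6 of them (ACAT2, HMGCS1, IDI1, SQLE, CYP51A1 and SC5D) were at least 1.5-fold higher, where 3.72% of all genes were. HMGCS1 was the 1 gene past 2-fold, where 0.992% of all genes were. None of the 27 genes (0) was at least 1.5-fold lower, where 4.44% of all genes were, nor 2-fold lower, where 1.13% were. Counting intervals lay above equal levels for 17 of the 27 genes, where 27.9% of all genes had such an interval, and below for 2 (SREBF1 and NR1H2), where 26.4% did. At 1.2-fold, 16 were higher and 2 lower, where 17.4% and 17.2% of all genes were. The median log2 ratio of the 19 enzymes was 0.41, or 0.40 with TM7SF2, and that of all genes at 5 CPM was 0.01. Of the 8 other genes past 5 CPM, 5 were higher and 3 lower, where 48.8% of all genes were lower, with a median of 0.24, or 0.47 with MYLIP. The list was named with an earlier result on these columns known, so its direction is no independent evidence.

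**Figure D1:**
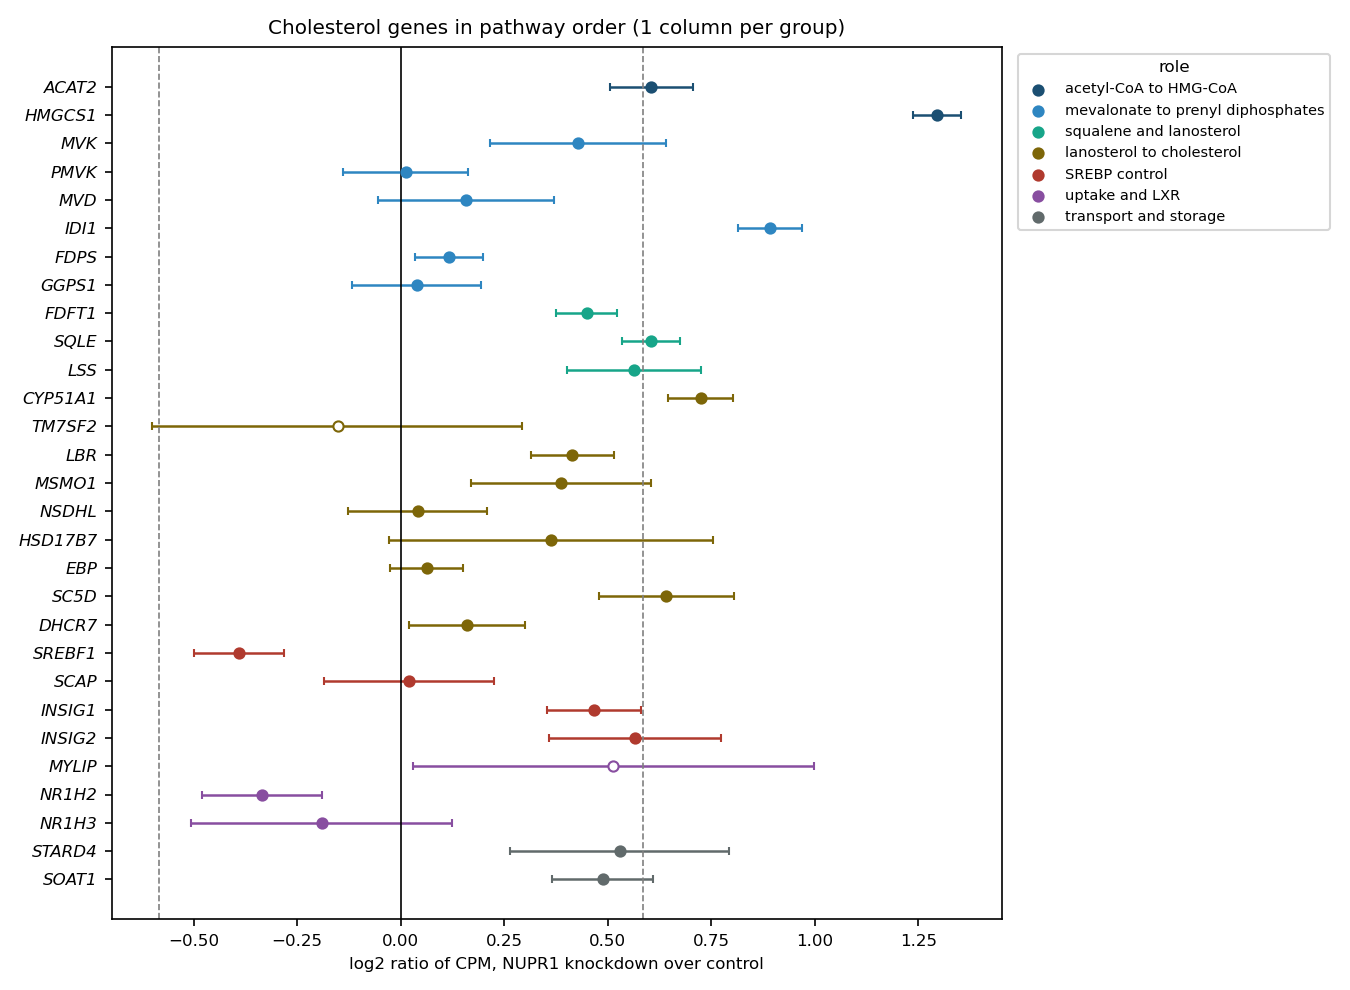
Log2 ratio of CPM (knockdown over control) for the 29 genes, from ACAT2 at the top through the enzymes to the control, uptake and storage genes. Points are single values, bars are 95% counting intervals, open points are TM7SF2 and MYLIP with a mean under 5 CPM, and dashed lines mark 1.5-fold. HMGCS1 at 1.30 and IDI1 at 0.89 lie farthest to the right, and SREBF1 at -0.39 farthest to the left.

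The entry of the pathway was higher at both of its listed steps. ACAT2, the cytosolic thiolase that joins acetyl-CoA units, had 1845 reads with the knockdown and 1452 without, or 109.9 CPM (104.9 to 115) against 72.2 CPM (68.6 to 76.1). HMGCS1, the cytosolic synthase that makes HMG-CoA, had 7206 and 3514 reads, or 429 CPM (419 to 439) against 175 CPM (169 to 181). The intervals of the columns did not overlap for either gene. The log2 ratio of HMGCS1 was 1.30 (1.24 to 1.35), a 2.45-fold higher level, and 48 of the 10689 genes had a higher ratio. That of ACAT2 was 0.60 (0.50 to 0.70). By the GENCODE annotation, exons of ACAT2 share opposite-strand bases with the chaperonin gene TCP1 (397), SOD2 (1141) and SOD2-OT1 (1458). TCP1 had 455 CPM against 402 CPM and a log2 ratio of 0.18, and SOD2 had 0.32. Exons of HMGCS1 share 703 bases with the antisense gene AC114947.2. Without a stated strand setting, reads in the shared bases cannot be told apart. Overlaps are named here for some of the genes only.

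The middle of the pathway, from mevalonate to the prenyl diphosphates, was split. IDI1, the isomerase that makes dimethylallyl diphosphate, had 3450 and 2224 reads with and without the knockdown, at 205 (199 to 212) and 111 CPM (106 to 115). Its log2 ratio was 0.89 (0.82 to 0.97), and 152 of the 10689 genes had a higher one. MVK, the mevalonate kinase, had 389 reads against 346, with 23.2 CPM (20.9 to 25.6) against 17.2 CPM (15.5 to 19.1). The MVK ratio of 0.43 (0.22 to 0.64) excluded equal levels at this depth. The kinase and the decarboxylase that follow did not stand out. PMVK had 39.8 and 39.5 CPM with and without the knockdown, with a log2 ratio of 0.01 (-0.14 to 0.16), and MVD had 21.1 and 18.9 CPM with 0.16 (-0.06 to 0.37). FDPS, which makes farnesyl diphosphate, had 137 CPM (131 to 142) against 126 CPM (121 to 131), a ratio of 0.12 (0.03 to 0.20) that 34.0% of all genes exceeded. GENCODE names 8 pseudogenes after FDPS, so its reads could be shared among copies. Exons of FDPS also share 693 bases with RUSC1-AS1 on the opposite strand, which had 34 and 45 reads with and without the knockdown. GGPS1, which diverts farnesyl diphosphate to geranylgeranyl diphosphate, had 37.4 against 36.4 CPM and a log2 ratio of 0.04 (-0.12 to 0.19). A difference for PMVK, MVD or GGPS1 was not detectable at this depth. GGPS1 also shares 1422 exonic bases with TBCE on the same strand, and TBCE had a log2 ratio of 0.55.

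The steps that commit farnesyl diphosphate to sterols were higher at all 3 genes. FDFT1, the squalene synthase, had 3179 and 2786 reads with and without the knockdown, at 189 (183 to 196) and 139 CPM (133 to 144). SQLE, the squalene epoxidase and a slow step of the sterol branch, had 3644 and 2868 reads with and without the knockdown. That is 217 CPM (210 to 224) against 143 CPM (138 to 148). LSS, the lanosterol synthase, had 701 and 568 reads with and without the knockdown, at 41.7 (lower bound 38.7) and 28.3 CPM (upper bound 30.7). The columns' intervals were apart for all 3 genes. The log2 ratios were 0.45 (0.38 to 0.52) for FDFT1, 0.60 (0.53 to 0.68) for SQLE and 0.56 (0.40 to 0.72) for LSS. Against these, GGPS1 on the competing branch lagged FDFT1. The ratio of FDFT1 to GGPS1 reads was 5.06 with the knockdown and 3.81 without, and this comparison needs no scaling factor (log2 difference 0.41, Woolf 95% interval 0.24 to 0.58). The difference between the ratios of SQLE and LSS was within counting error, at 0.04 (-0.13 to 0.22). In all, 8 such pairs were compared.

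The conversion of lanosterol to cholesterol held both shifted and flat genes. CYP51A1, the lanosterol demethylase, had 3105 and 2249 reads with and without the knockdown, at 185 (178 to 192) and 112 CPM (107 to 117), and a log2 ratio of 0.72 (0.65 to 0.80). SC5D, the sterol desaturase near the end of the route, had 717 and 550 reads with and without the knockdown, at 42.7 (39.6 to 45.9) and 27.4 CPM (25.1 to 29.8), and 0.64 (0.48 to 0.80). These were the 2 genes of the group past 1.5-fold. By GENCODE, 79.4% of the exonic bases of CYP51A1 lie in a second annotated gene of the same strand, AC000120.2, and 3 pseudogenes carry its name, so its reads could be split or shared. LBR, a sterol reductase that is also a lamin receptor of the inner nuclear membrane, had 1731 reads against 1554 and a ratio of 0.41 (0.32 to 0.51). MSMO1, the methylsterol oxidase, had 366 reads against 335 and 0.39 (0.17 to 0.60). Both intervals excluded equal levels. NSDHL, a sterol dehydrogenase of demethylation, had 545 reads against 634 in the deeper control column, which is 32.5 CPM against 31.5 CPM and a ratio of 0.04 (-0.13 to 0.21). EBP, the sterol isomerase, had 117 CPM against 112 CPM and 0.06 (-0.03 to 0.15). DHCR7, the reductase of 7-dehydrocholesterol, had 48.6 CPM against 43.5 CPM and 0.16 (0.02 to 0.30). The ratios of NSDHL, EBP and DHCR7 lay within the bulk of genes, since 45.0%, 41.8% and 28.2% of all genes had higher ones. HSD17B7, a sterol ketone reductase, had only 116 and 108 reads and a ratio of 0.36 (-0.03 to 0.75), and GENCODE names 2 pseudogenes after it. TM7SF2, which reduces the same double bond as LBR, had 76 and 101 reads, or 4.53 and 5.03 CPM, with a ratio of -0.15 (-0.60 to 0.29). Relative to LBR, TM7SF2 was lower in the knockdown column by 0.57 on the log2 scale (interval -1.01 to -0.13).

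By deposited RPKM, which allows levels of different genes to be compared per length, EBP and FDPS were the most abundant of the 20 enzymes in both columns. EBP had 88.6 RPKM in the control column and 94.4 in the knockdown column, and FDPS had 76.7 and 84.8. HMGCS1 stood at rank 5 in the control column, at 32.1 RPKM below SQLE (47.9) and FDFT1 (36.1), and at rank 3 in the knockdown column, at 80.5 RPKM above SQLE (74.3). IDI1 had 31.0 and 58.8 RPKM, next to PMVK at 30.5 and 31.4. IDI1 and PMVK were thus close in the control column and apart in the knockdown column. The lowest enzymes were SC5D, TM7SF2 and HSD17B7, between 2.12 and 4.50 RPKM.

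**Figure D2:**
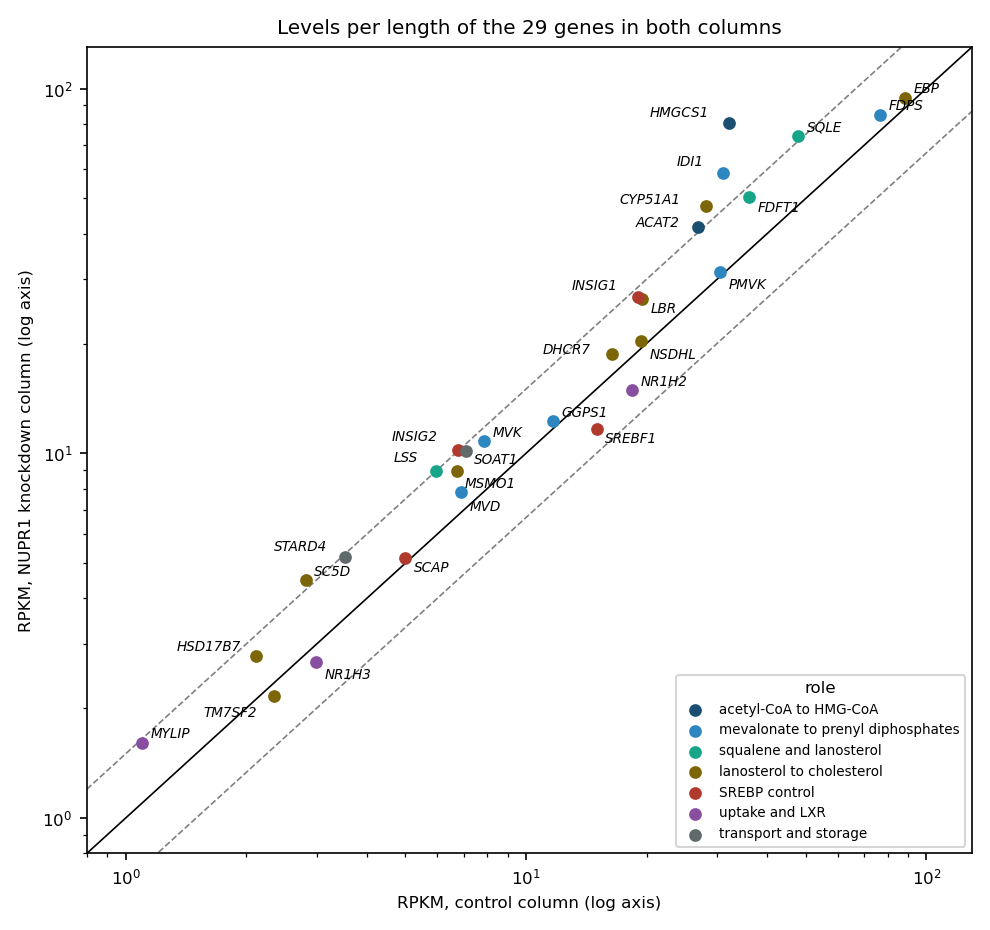
Deposited RPKM of the 29 genes in the control column (horizontal) and the NUPR1 knockdown column (vertical), both on log axes, with 1 point per gene. The solid line marks equal levels and the dashed lines 1.5-fold. HMGCS1 stands above the upper dashed line at 80.5 against 32.1 RPKM, and EBP and FDPS lie at the top near equality.

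**Figure D3:**
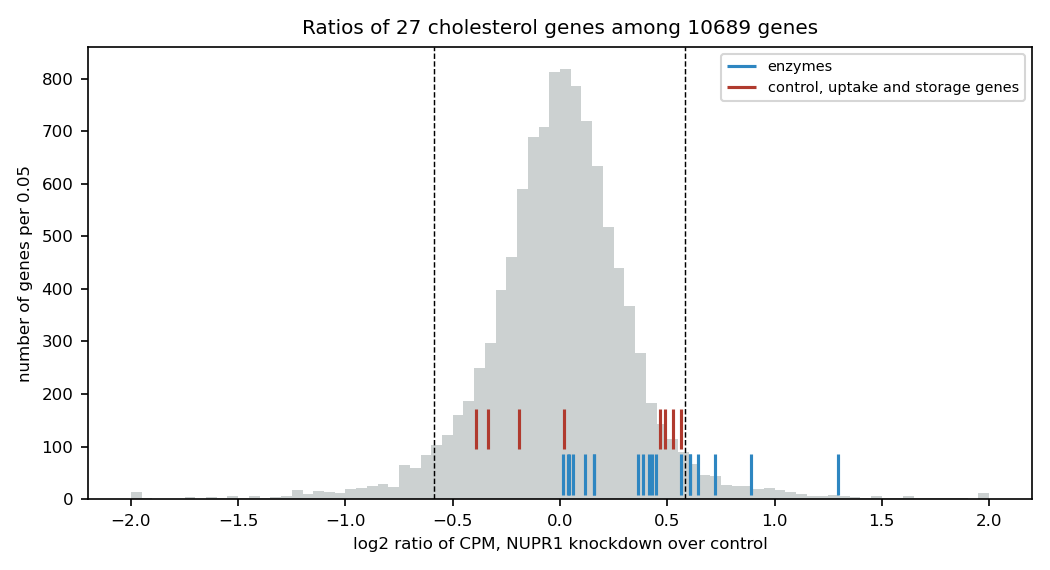
Histogram of the log2 ratio (knockdown over control) for the 10689 genes with a mean of at least 5 CPM, with genes beyond 2 on either side placed in the end bins. Ticks mark the 19 enzymes (lower row) and 8 control, uptake and storage genes (upper row), and dashed lines mark 1.5-fold. All enzyme ticks lie at or right of 0.01, up to 1.30.

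Of the genes that control SREBP, both INSIG genes were higher in the knockdown column, while SREBF1 was lower. INSIG1, itself a SREBP target, had 1360 and 1178 reads with and without the knockdown, at 81.0 (76.7 to 85.4) and 58.6 CPM (55.3 to 62.1). INSIG2, its paralog with less dependence on SREBP, had 434 and 351 reads with and without the knockdown, at 25.8 (23.5 to 28.4) and 17.5 CPM (15.7 to 19.4). Their log2 ratios were 0.47 (0.35 to 0.58) and 0.57 (0.36 to 0.77), and the difference between them was within counting error (-0.10, interval -0.33 to 0.13). SCAP, the escort of SREBP, had 21.5 against 21.2 CPM and a ratio of 0.02 (-0.19 to 0.23). SREBF1, which encodes the SREBP-1 isoforms best known for driving fatty acid synthesis, had 1128 and 1770 reads with and without the knockdown, at 67.2 (63.3 to 71.2) and 88.1 CPM (84.0 to 92.3). Its log2 ratio was -0.39 (-0.50 to -0.28), the lowest of the 29, and 9.88% of all genes had a lower one. Its exons share 556 bases with RAI1 on the opposite strand, which had -0.20. SREBF1 is GC-rich (63.3%), and with the trend of all genes on GC content removed its ratio was -0.25. The same step gave 0.49 for INSIG2 (37.2% GC), 0.46 for INSIG1 and 0.11 for SCAP.

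Both LXR genes had ratios below 0 and the ligase they induce had one above 0. NR1H2 (LXR beta) had 658 and 993 reads with and without the knockdown, at 39.2 (36.2 to 42.3) and 49.4 CPM (46.4 to 52.6), with a log2 ratio of -0.33 (-0.48 to -0.19). NR1H3 (LXR alpha), also a target of LXR in human cells, had 148 and 202 reads with and without the knockdown, at 8.81 and 10.1 CPM, with -0.19 (-0.51 to 0.12). The interval of NR1H3 held equal levels, and its difference from NR1H2 was within counting error (log2 difference -0.14, interval -0.48 to 0.19). MYLIP, a ubiquitin ligase induced by LXR that sends lipoprotein receptors to degradation, had 81 and 68 reads with and without the knockdown, at 4.82 (3.83 to 5.99) and 3.38 CPM (2.63 to 4.29). The intervals of the MYLIP columns overlapped, and the ratio of 0.51 had a wide interval of 0.03 to 1.00. NR1H2 and NR1H3 are also GC-rich, at 63.0% and 58.9%, and with the trend of all genes on GC content removed their ratios were -0.20 and -0.10.

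Transport and storage genes were higher by amounts like those of the enzymes. STARD4, a soluble sterol carrier and SREBP target, had 264 and 219 reads with and without the knockdown, at 15.7 (13.9 to 17.7) and 10.9 CPM (9.50 to 12.4), with a log2 ratio of 0.53 (0.26 to 0.79). SOAT1, which esterifies cholesterol for storage in droplets, had 1175 and 1003 reads with and without the knockdown, at 70.0 (66.0 to 74.1) and 49.9 CPM (46.9 to 53.1), with 0.49 (0.36 to 0.61). The columns' intervals were apart for both. Neither reached 1.5-fold. The genes just inside that threshold were SQLE and ACAT2, each 1.52-fold higher, and those just outside it were INSIG2 and LSS at 1.48-fold.

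Gene starts were compared because SREBP acts on promoters through short sterol elements, together with NF-Y at CCAAT boxes and Sp1 at GC boxes. Promoter windows of 300 bases (250 before and 50 after the start, RefSeq, GRCh38.p14) matched 27 of the 30 genes, with 38 windows. ACAT2, FDFT1 and SQLE matched none, so 17 of the 20 enzymes were searched. These genes, of which ACAT2 and SQLE were past 1.5-fold, are absent from every motif count and median below. Both strands were searched. The sterol element TCACNCCAC occurred at 1 of the 27 genes, SREBF2, and at 1.39% of all 27305 genes. The shorter CACNCCAC, chosen after the windows were seen and contained in that element, occurred at IDI1, SC5D, INSIG1 and SREBF2, and at 7.05% of all genes. CCAAT occurred at 20 of the 27 genes against 39.7% of all genes and 43.9% of the 8036 matched genes with a mean of 5 CPM. The GC box GGGCGG occurred at 25, against 48.3% and 78.7%. The element TCACNTGA occurred at INSIG1 and EBP, and at 4.65% of all genes. The median log2 ratio was 0.39 for the 19 measured genes with CCAAT and 0.02 for the 7 without. It was 0.64 for the 3 with CACNCCAC and 0.16 for the 23 without, 0.26 for the 2 with TCACNTGA and 0.37 for the 24 without, and 0.37 for the 24 with GGGCGG and 0.23 for the 2 without, so the motifs differed in direction. The 7 genes without CCAAT were the enzymes PMVK (0.01), LBR (0.41) and CYP51A1 (0.72), and SREBF1 (-0.39), NR1H2 (-0.33), SCAP (0.02) and INSIG2 (0.57). The CCAAT medians therefore mix enzymes with control and LXR genes, and 14 of the 17 enzymes searched held CCAAT. A match describes letters only. The windows below show, with bases before the start and matches to CACNCCAC, TCACNTGA and CCAAT in capitals on either strand, the gene with the highest ratio (HMGCS1, chr5:43313413-43313662, minus strand), the higher INSIG1 (chr7:155297628-155297877, plus strand) and flat genes of the same pathway, NSDHL (chrX:152830813-152831062, plus strand) and EBP (chrX:48521558-48521807, plus strand). For IDI1 (chr10:1048992-1049021, minus strand) and SC5D (chr11:121292773-121292802, plus strand) 30 bases around the CACNCCAC match are shown. Each of these short stretches lies before an annotated start of its gene but after another.
HMGCS1: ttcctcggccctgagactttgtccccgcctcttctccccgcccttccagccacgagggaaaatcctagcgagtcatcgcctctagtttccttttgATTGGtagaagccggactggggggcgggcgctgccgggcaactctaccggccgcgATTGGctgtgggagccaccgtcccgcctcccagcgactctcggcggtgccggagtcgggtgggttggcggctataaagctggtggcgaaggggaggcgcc
IDI1: gcgCCAATTGGccgggcgatGTGGCGTGga
SC5D: tttgcagagcaGTGGCGTGcggagcggcgg
INSIG1: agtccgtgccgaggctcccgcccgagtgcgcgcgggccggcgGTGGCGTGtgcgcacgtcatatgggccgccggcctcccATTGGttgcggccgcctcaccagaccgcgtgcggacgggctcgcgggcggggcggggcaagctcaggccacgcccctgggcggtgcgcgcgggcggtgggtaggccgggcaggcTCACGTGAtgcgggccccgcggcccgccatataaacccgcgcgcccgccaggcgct
NSDHL: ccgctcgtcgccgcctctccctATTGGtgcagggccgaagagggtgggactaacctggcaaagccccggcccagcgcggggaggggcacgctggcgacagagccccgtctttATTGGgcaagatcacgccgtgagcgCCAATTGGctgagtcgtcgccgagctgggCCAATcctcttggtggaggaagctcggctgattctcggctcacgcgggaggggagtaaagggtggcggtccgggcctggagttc
EBP: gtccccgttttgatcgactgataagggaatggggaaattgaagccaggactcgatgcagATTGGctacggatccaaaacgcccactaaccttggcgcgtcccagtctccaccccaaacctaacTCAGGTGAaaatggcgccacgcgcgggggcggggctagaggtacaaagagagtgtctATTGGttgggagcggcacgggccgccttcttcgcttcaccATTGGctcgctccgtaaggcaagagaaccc

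Matches and ratios are set side by side for some genes, picked with their ratios known. Whether matches go with ratios was not tested. HMGCS1, with a log2 ratio of 1.30, held 2 CCAAT boxes and no match to the sterol elements searched, while NSDHL, with 0.04, held 5 CCAAT matches, a palindromic pair counted on each strand, and EBP, with 0.06, held 3. CYP51A1, with 0.72, held none of the CCAAT boxes, and neither did PMVK, with 0.01, or SREBF1, with -0.39. IDI1, with 0.89, and SC5D, with 0.64, held CCAAT. IDI1, SC5D and INSIG1 share the same 8 letters, GTGGCGTG as read on the strand of the gene.

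Gene length and GC content were set against the ratio. Across the 19 enzymes the Spearman correlation of the log2 ratio with deposited gene length was 0.74, across all 27 genes of the list it was 0.34, and across all 10689 genes it was -0.05. These correlations run across genes of the same libraries, which are not independent replicates. The 4 enzymes under 2000 bases (PMVK, FDPS, NSDHL and EBP) had ratios of 0.01 to 0.12. The 6 enzymes of 2000 to 2900 bases had a median of 0.37, with MVD lowest at 0.16 and ACAT2 highest at 0.60. The 9 enzymes over 2900 bases had a median of 0.60, with GGPS1 lowest at 0.04 and HMGCS1 highest at 1.30. All genes of these length classes had medians of 0.02, 0.03 and -0.0012, from the shortest class to the longest. The cuts between the classes were not part of the plan. With GC content the Spearman correlation was -0.45 across the 19 enzymes, -0.65 across the 27 genes and -0.21 across the 9910 genes with a value. With the trend of all genes on length removed 5 genes were at least 1.5-fold higher. That trend was nearly flat, so its removal could not take out the correlation of 0.74 among the enzymes. With the trend of all genes on GC content removed 5 were at least 1.5-fold higher as well, LSS being among them and SQLE and SC5D not. The ratio of HMGCS1 was 1.22 with the GC trend removed. The part of length and GC content in these ratios was not tested.

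**Figure D4:**
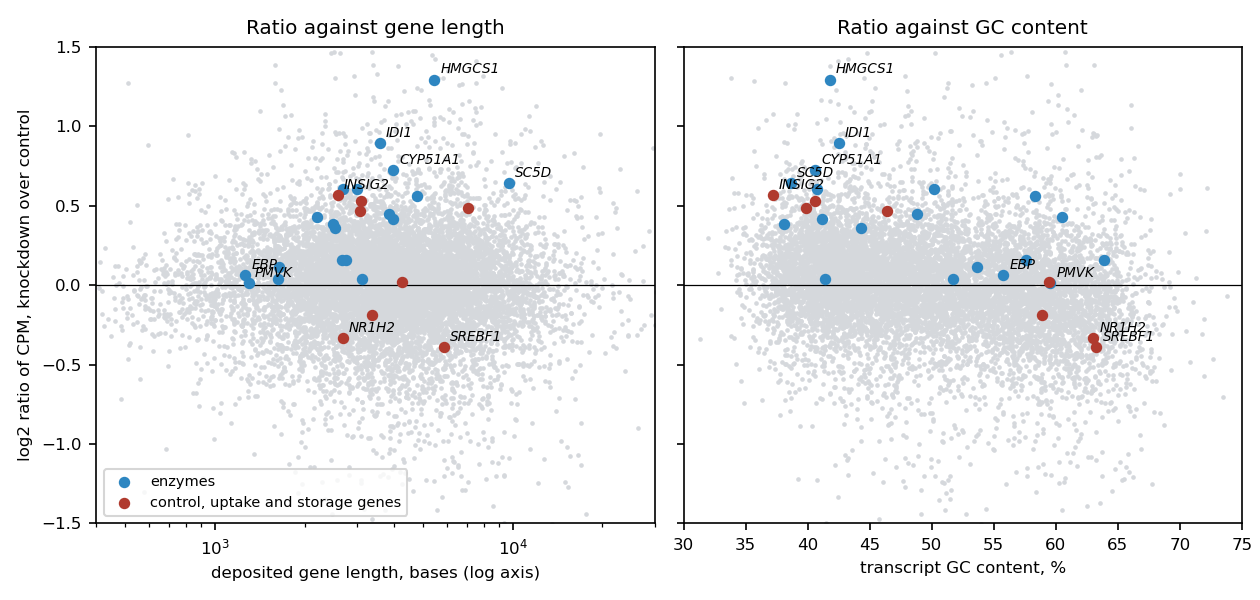
Log2 ratio (knockdown over control) against deposited gene length in bases on a log axis (left) and against transcript GC content in percent (right). Grey points are genes with a mean of at least 5 CPM, cut at 1.5 on the vertical axis, blue points the 19 enzymes and red points the 8 control, uptake and storage genes. The short enzymes PMVK and EBP lie near 0, and the GC-rich SREBF1 and NR1H2 lie lowest of the coloured points.

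Neighbouring genes of sterol biology, taken from 7 lists by textbook role and named by a fixed rule of ratio and level, had medians between -0.27 and 0.22. Their counts stand against the shares of all genes given above, 51.2% higher and 48.8% lower, with 3.72% past 1.5-fold upward and 4.44% downward, and in lists this short 0 past 1.5-fold is near those shares. Among 12 genes of SREBP activation and sterol-regulated degradation in the endoplasmic reticulum, 6 were higher and 6 lower, with a median log2 ratio of 0.02 and 0 past 1.5-fold in either direction. The ubiquitin ligase RNF139 had 0.43 (0.22 to 0.65), AUP1 had 0.27 and PAQR3 had 0.25. In the list of electron donors, not all of them in the endoplasmic reticulum, 5 of 6 genes past 5 CPM were higher. The share of all genes was 51.2%, and the median of the list was 0.22. CYB5B, a cytochrome b5 of the outer mitochondrial membrane, had 187 CPM against 125 CPM, a ratio of 0.58 (0.50 to 0.65), whereas its paralog CYB5A in the endoplasmic reticulum had 54.4 against 76.5 CPM, a ratio of -0.49 (-0.61 to -0.37). POR, the P450 reductase that supplies CYP51A1 and SQLE, had 0.39 (0.27 to 0.50), CYB5R1 had 0.34, and the heme-binding PGRMC1, the most abundant of that list per length, had 0.10. Of 14 genes of the isoprenoid branch, 9 were higher and 5 lower, 0 passed 1.5-fold and the median was 0.09. The prenyltransferase subunit gene FNTA had 0.44 (0.34 to 0.54), DHDDS, which makes dolichol precursors, 0.40, the Rab escort gene CHM 0.23, COQ2 of ubiquinone synthesis 0.19 and RABGGTB -0.04.

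Sterol traffic, receptors and efflux genes pointed in different directions. TMEM97, a membrane protein of the endoplasmic reticulum and a SREBP target, had 1224 and 845 reads with and without the knockdown, at 72.9 and 42.0 CPM, and a log2 ratio of 0.79 (0.67 to 0.92). It was the 1 gene past 1.5-fold among 15 of the transport list past 5 CPM. LIPA, the lysosomal acid lipase that frees cholesterol from esters, had 0.43 (0.32 to 0.54), while GRAMD1A, which carries sterol from the plasma membrane to the endoplasmic reticulum, had -0.53 (-0.61 to -0.44) and OSBPL5 had -0.38. The median of that list was 0.09, or -0.02 with the genes under 5 CPM, so its sign turned with the filter. Of 11 lipoprotein receptor and adaptor genes past 5 CPM, 5 were higher and 6 lower, where 48.8% of all genes were lower, with a median of -0.04. Past 1.5-fold, 2 were higher and 1 lower, where 3.72% and 4.44% of all genes were. The sorting receptors SORL1 and SORT1 had 0.87 (0.63 to 1.11) and 0.84 (0.68 to 1.00), and the endocytic receptors LRP1 and VLDLR had -0.87 (-1.03 to -0.70) and -0.55 (-0.75 to -0.36), with LRP10 at 0.01. Of 9 efflux, LXR target and oxysterol genes past 5 CPM 6 were lower, where 48.8% of all genes were, and 5 had an interval below equal levels, where 26.4% did. The median of that list was -0.27, or -0.32 with the measured genes under 5 CPM. LPCAT3, a phospholipid-remodelling target of LXR, had -0.50 (-0.79 to -0.22), the sterol sulfotransferase gene SULT2B1 -0.55, ABCA2 -0.35 and the lipoprotein receptor SCARB1 -0.27 (-0.36 to -0.19), while RXRB, a partner of LXR, had 0.36. The fatty acid genes driven by SREBP divided 4 higher to 9 lower, where 48.8% of all genes were lower, and 2 of the 13 (SCD and GPAM) were at least 1.5-fold lower, where 4.44% of all genes were. The median was -0.19, with LPIN1 at 0.50, FADS2 at -0.47, SCD at -0.64, GPAM at -0.64 and ACLY at -0.33. No difference between lists was tested.

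**Figure D5:**
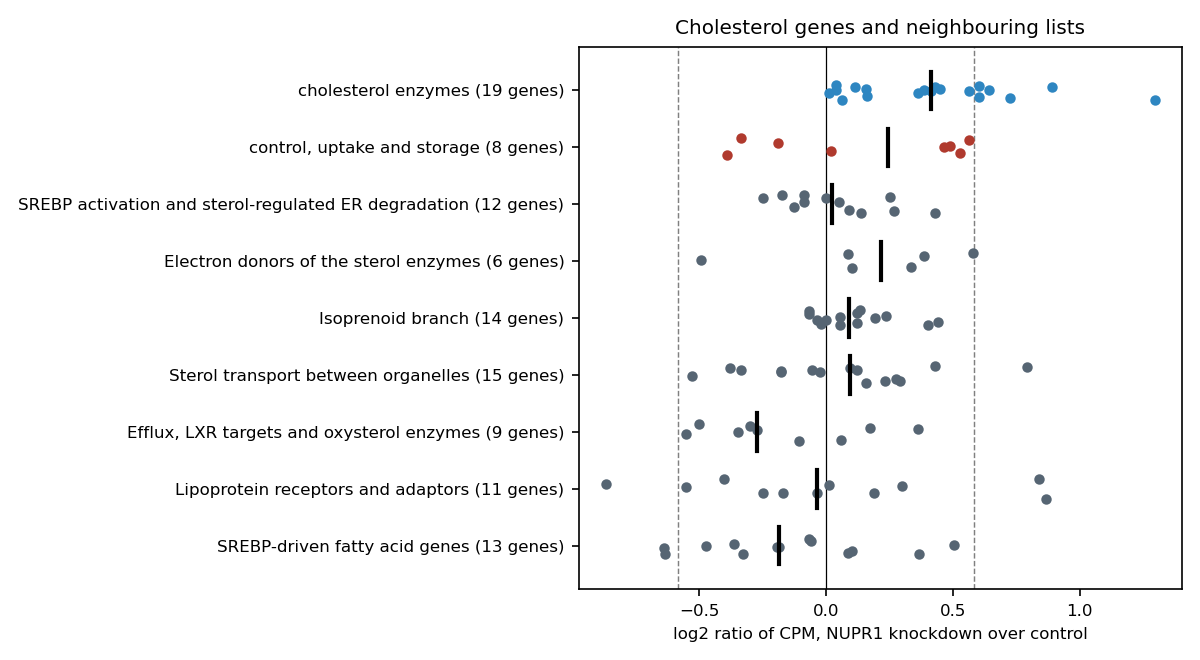
Log2 ratio (knockdown over control) of the 19 enzymes, the 8 control, uptake and storage genes and 7 neighbouring lists, for genes with a mean of at least 5 CPM, 1 point per gene with a vertical offset for legibility. Thick bars are medians and dashed lines mark 1.5-fold. The enzyme median lies at 0.41 and those of the efflux and fatty acid lists at -0.27 and -0.19.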

How the data were processed

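Polyadenylated RNA of A549 cells with NUPR1 knockdown and of control cells was sequenced, and groups were taken from the labels. Per the submitters' processing notes, which state no role or order, the tools were TopHat2 2.0.10 and edgeR 3.2.2 and the build was hg19. The authors deposited read counts as whole numbers, 1 column per group. The deposited RPKM values above 1 match counts over gene length times 1 constant per column within 1%. Not given in the sources used here are the counter, annotation, strand setting, filters and how the layouts were merged. The name of the knockdown column differs from its library titles by 1 letter. There were 0 further columns of values.

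The members and lists were chosen with earlier results of these data known. From the counts, 3 rows without a usable gene length were left out (0.0872% and 0.0509% of reads), genes were filtered with filterByExpr (minimum count 10, minimum total 15), and TMM factors (1.01 and 0.991) were computed with edgeR 4.0.16 in R 4.3.3. Ratios of CPM carry 95% exact conditional (Clopper-Pearson) intervals from scipy 1.17.1, with no pseudocount. No molecular identifiers are named in the labels, so intervals cover counting error only, and they are too narrow if mates of a pair were counted separately. Since 0 residual degrees of freedom remain, the planned quasi-likelihood test was replaced by these ratios, without p-values. The ratio procedure was tested on simulated counts, which cannot stand in for replicate cultures, and no result above rests on that test. Alternatives were library totals, DESeq2 1.42.0 size factors, upper-quartile factors, RPKM with a pseudocount of 0.1 or 1, other filters and fold thresholds, and removal of trends on length, mean CPM or GC content. All 30 members are named. Of each neighbouring list, up to 4 genes with the largest ratio at a mean of 5 CPM and the 1 with the highest RPKM are named, except 1 gene that is not reported here. GC content and overlaps came from GENCODE release 29, on another build than the tables, matched by symbol, and promoter sequences from RefSeq.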

Additional observations from a re-analysis of the deposited data

How the results depend on the processing

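No paired analysis was possible because each group has a single column, and leaving out each library or blocking by layout was not run for the same reason. The 6 genes at least 1.5-fold higher became 1 at a 2-fold threshold and 16 at a 1.2-fold threshold, and the 0 lower genes became 2 at 1.2-fold, by construction of the thresholds. In the other alternatives 4 to 8 genes were at least 1.5-fold higher, with HMGCS1, IDI1 and CYP51A1 in each, and 0 lower. The lowest number, 4, came with the trend on mean CPM removed and the highest, 8, with scaling by library totals, which adds LSS and INSIG2. The enzyme median stayed between 0.35 (trend on GC content removed, chosen after seeing the data) and 0.44. The median of the control, uptake and storage genes was 0.24 and became 0.47 both with a minimum mean of 1 CPM and with no filter on low counts, since MYLIP then enters as the ninth gene. Among the 27 genes past 5 CPM, PMVK (-0.02 to 0.10) and GGPS1 (-0.03 to 0.07) changed sign under at least 1 alternative and the others under none of those run. MYLIP and TM7SF2 entered only the filter alternatives, which cannot change their values. Without replicates, depth limits only the counting error, which was widest for MYLIP, TM7SF2 and HSD17B7.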

Other observations

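Some further rows with few reads were chosen for mention after their values were seen. The LXR-driven sterol exporters ABCA1, ABCG1 and ABCG4 belong to the efflux list but were all under a mean of 5 CPM. They had 10, 59 and 6 reads in the knockdown column and 38, 98 and 15 in the control column. Their log2 ratios were -1.67 (-2.84 to -0.63), -0.47 (-0.96 to 0.01) and -1.06 (-2.72 to 0.38). A separate row named SREBP-1, kept apart from SREBF1, had 32 and 34 reads. HSD17B7P2, a pseudogene of HSD17B7, had 36 and 28 reads, and STARD4-AS1, antisense to STARD4, had 17 and 10. IDI2-AS1, which overlaps IDI1 on the opposite strand, had 39 and 27 reads, against 3450 and 2224 for IDI1.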
